A study of Bos taurus with 6 samples.

Results

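The miRNAs described here come from the miR-17-92 cluster and from its relatives, the miR-106b-25 and miR-106a-363 clusters and the single gene of miR-92b. They were picked out by name. Of the 13 names asked for, 8 had a row in the deposited count table of cow milk extracellular vesicles (EVs), and these 8 are the members. The remaining 5 names, bta-miR-18a, bta-miR-18b, bta-miR-19a, bta-miR-20b and bta-miR-106a, were not listed in the table and not analysed here. The members are 8 of the 276 known miRNAs, meaning rows with a cow miRNA name, in a table of 779 rows that also holds 503 predicted miRNAs.

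Small RNA of milk EVs, the membrane-bound particles that cells release, was sequenced from 6 female Holstein cows in mid lactation. The animals were 101 ± 10 days in milk and stood in climate chambers held at 20 °C and 40% humidity. The control diet of 3 cows was a total mixed ration (TMR), and the replacement diet of the other 3 had whole cotton seed and soybean hull in place of part of the alfalfa hay. Each library is 1 cow, so the p-values measure the spread between cows. The EVs were isolated with the Total Exosome Isolation kit, and no genotype or age of the animals is given beside the strain. The level of a member is the percentage it takes of known miRNA counts in a cow. These totals ran from 61156 to 176919 counts, of which the members took 1537 to 3641. Intervals, and the limits that 3 counts set for an undetected miRNA, cover counting error only, since PCR makes several reads of 1 molecule. Milk EVs come from several cell types, and in such bulk samples fewer EVs from a cell type and less of a miRNA per EV cannot be told apart.

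A miRNA cluster is transcribed as a single primary RNA, from which each hairpin is cut out, and the mature strand then guides silencing of messenger RNAs that pair with its seed. The miR-17-92 cluster, carried by the transcript MIR17HG, is known for driving cell proliferation under MYC and for its roles in B cell and lung development. Mammary epithelium, leukocytes and maturing red blood cells all express members of the family, and milk EVs can carry miRNAs from each of these sources.

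The mature sequences of the members, taken from the deposited table, are shown by seed group because the seed sets which messenger RNAs a miRNA can pair with. Capitals mark the seed, bases 2 to 8 counted from the 5′ end, and T stands for U. The first group holds both abundant members, and bta-miR-32, a relative outside the chosen names, is added because it carries the same seed.
bta-miR-92a: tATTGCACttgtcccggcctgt
bta-miR-25: cATTGCACttgtctcggtctga
bta-miR-92b: tATTGCACtcgtcccggcctcc
bta-miR-32: tATTGCACatgactaagttgcat
The group of bta-miR-17-5p has 4 members, which are known to repress the cell cycle inhibitor CDKN1A.
bta-miR-17-5p: cAAAGTGCttacagtgcaggtagt
bta-miR-20a: tAAAGTGCttatagtgcaggtag
bta-miR-93: cAAAGTGCtgttcgtgcaggta
bta-miR-106b: tAAAGTGCtgacagtgcagat
The last group has 1 member.
bta-miR-19b: tGTGCAAAtccatgcaaaactga

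All 9 sequences are 21 to 24 nt long, and no predicted miRNA in the table carried any of the 3 seeds. Counted from the 5′ end of bta-miR-92a, bta-miR-25 differs from it by T1C, C14T, C18T and T22A, so the seeds are identical and the pair stays distinct over 4 of 22 positions. Only 3 substitutions, T10C, G21C and T22C, lead from bta-miR-92a to bta-miR-92b. Within the other large group, bta-miR-20a differs from bta-miR-17-5p by C1T and C12T over the 23 positions compared. The treatment of reads matching more than 1 miRNA is not given in the sources used here, so the counts of bta-miR-92b beside bta-miR-92a and of bta-miR-17-5p beside bta-miR-20a are uncertain to that extent. The members of the first group are also the richest in G and C, with 63.6% in bta-miR-92b, 54.5% in bta-miR-92a and 50% in bta-miR-25, a value that bta-miR-93 shares. The median of known miRNAs was 45.8%, and the lowest members, bta-miR-20a and bta-miR-19b, had 39.1%. With 34.8%, bta-miR-32, which shares the seed of the first group but is not a member, was the lowest of the 9 sequences. Ligation and amplification bias, which can depend on base composition and end bases, was not measured.

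All 9 miRNAs had a gene in RefSeq's table for the cow assembly ARS-UCD2.0. Because reads had been aligned to ARS-UCD1.2, only names and neighbours are given. MIR17, MIR20A and MIR19B stand within 10 kb of MIR18A, MIR19A and MIR92A-1, which makes up the cluster of 6 hairpins. A separate paralogous cluster holds MIR92A-2 and MIR19B-2 beside MIR363, MIR20B, MIR18B and MIR106A. A mature bta-miR-92a or bta-miR-19b can therefore come from either cluster, and the counts do not separate the sources. MIR106B, MIR93 and MIR25 lie together within MCM7, a gene of the DNA replication helicase. MIR92B stands alone near THBS3, MUC1 and TRIM46, and MIR32 lies within TMEM245.

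The level of bta-miR-92a, a miRNA known for restraining vessel growth and abundant in blood, was 1.60%, 1.81% and 2.34% of known miRNA counts in control cows 1, 2 and 3. In replacement cows 1, 2 and 3 it was 1.59%, 1.54% and 1.62%. Control cow 3 stood above the other cows, the remaining 5 lay close together, and the diets overlapped at control cow 1. Known miRNAs were also fewest in control cow 3, with 61156 counts or 15.8% of all miRNA counts, and with predicted miRNAs in the total bta-miR-92a held 0.368% there against 0.666% in replacement cow 1, which was then the highest. Over all cows bta-miR-92a held 1.75% ± 0.303 (SD, n = 6 cows), which was rank 15 among the known miRNAs and between ranks 11 and 17 in single cows. Its counting error was small, as the share in control cow 3 had a 95% Wilson interval of 2.22% to 2.46%. The replacement mean minus the control mean was -0.337 percentage points (p = 0.2 by a two-sided exact permutation test, whose smallest possible p at this sample size is 0.1). Without control cow 3 the difference was -0.128 points, and in the deposited RPM, counts scaled to the reads of each library, the diets were close, with 144.5 ± 77.5 on the control and 140.3 ± 62.4 on the replacement diet (SD, n = 3 each, exact permutation p = 1). The sign of the difference depended on the total. With predicted miRNAs added to the total, bta-miR-92a took 0.412% ± 0.0989 of the control and 0.541% ± 0.126 of the replacement counts (SD, n = 3 each, exact permutation p = 0.2). Known miRNAs held from 15.8%, in control cow 3, to 42.0%, in replacement cow 1, of this wider total.

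For bta-miR-25, which is known to repress the apoptosis inducer BCL2L11, the share of known miRNA counts was 0.516%, 0.379% and 0.670% in control cows 1, 2 and 3. It was 0.197%, 0.206% and 0.428% in replacement cows 1, 2 and 3. Replacement cows 1 and 2 lay under every control cow, while replacement cow 3 lay above control cow 2, so the diets overlapped. The mean was 0.399% ± 0.183 (SD, n = 6), at rank 38, and single cows placed it between ranks 24 and 53. The highest cow exceeded the lowest by 3.41-fold, against 1.52-fold for bta-miR-92a, but with predicted miRNAs in the total the folds were 1.53 and 1.94. The diet difference was -0.245 percentage points (two-sided exact permutation p = 0.2). As a share of known and predicted counts together, bta-miR-25 was again lower on the replacement diet, with 0.0883% ± 0.0194 (SD, n = 3) against 0.109% ± 0.00267 (SD, n = 3), and the diets overlapped (exact permutation p = 0.3). In RPM it was 36.4 ± 10.8 on the control and 21.99 ± 5.06 on the replacement diet (SD, n = 3 each), and on that scale the diets did not overlap (exact permutation p = 0.1), as for 8 of the 103 known miRNAs with a count in every cow, or 7.77%.

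The least abundant miRNA of that seed group in the chosen set, bta-miR-92b, showed the opposite order of the diets. Control cows 1, 2 and 3 had 12, 23 and 8 counts of it, and replacement cows 1, 2 and 3 had 54, 23 and 48. As shares of known miRNA counts the control values were 0.0170%, 0.0143% and 0.0131%, and the replacement values were 0.0305%, 0.0239% and 0.0689%. Every replacement cow lay above every control cow (exact permutation p = 0.1), although the 95% Wilson intervals overlapped in 5 of the 9 pairs of a control and a replacement cow. Without replacement cow 3 the diet difference went from 0.0263 to 0.0124 percentage points. It was the 1 member without overlap among the 4 members with a count in every cow. Across the 103 known miRNAs with a count in every cow the same was true of 8, or 7.77%, and 4 of those 8 were higher on the replacement diet. The order of the diets for bta-miR-92b was the same with the total of known and predicted miRNAs and in RPM. Outside the chosen names, bta-miR-32 had 0, 14 and 4 counts in control cows 1, 2 and 3 against 37, 34 and 21 in replacement cows 1, 2 and 3, without overlap in share (exact permutation p = 0.1). Of the 125 known miRNAs with a count in at least 5 cows, 11, or 8.8%, had no overlap.

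**Figure D1:**
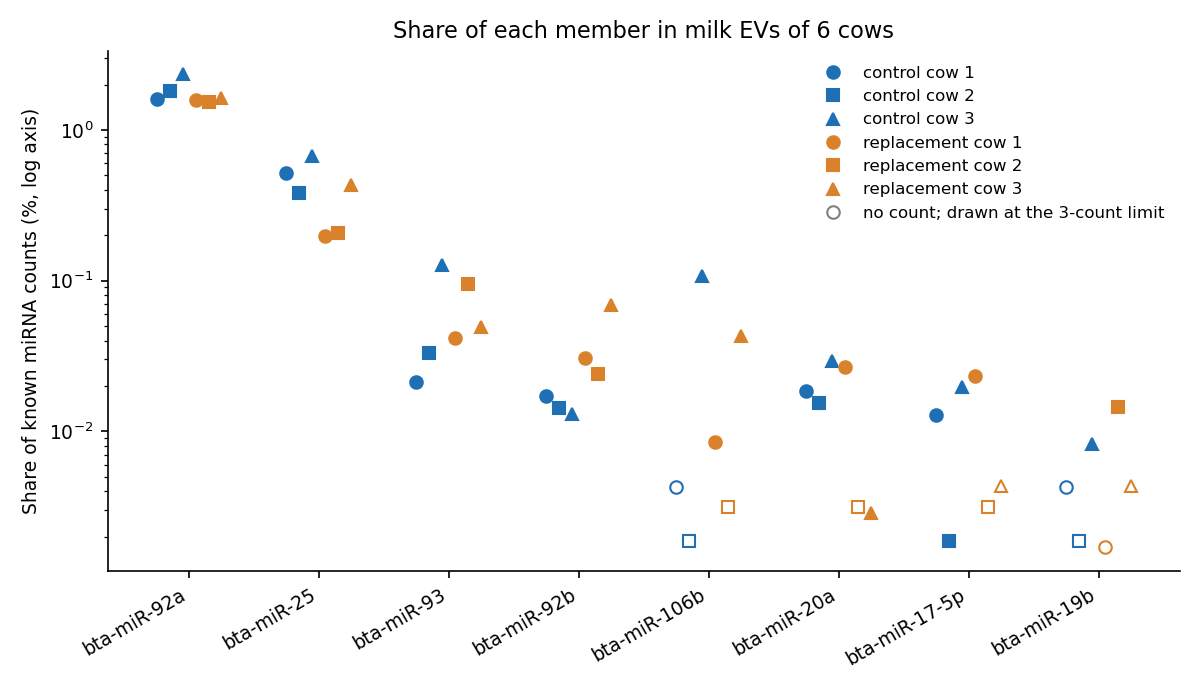
Share of known miRNA counts, in percent on a log axis, of each of the 8 members in each of the 6 cows. Filled symbols are measured shares and open symbols are cows with no count, drawn at the limit that 3 counts set; bta-miR-92a and bta-miR-25 lie above the other members in every cow, and the diets separate only for bta-miR-92b.

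The seed group of bta-miR-17-5p was far lower. Its most abundant member, bta-miR-93, had 15, 53 and 78 counts in control cows 1, 2 and 3 against 74, 91 and 34 in replacement cows 1, 2 and 3, a mean share of 0.0611% ± 0.0411 (SD, n = 6). The diets overlapped throughout this range, and the highest share of known miRNA counts was again that of control cow 3. For bta-miR-106b, which shares a primary transcript with bta-miR-93, only 3 cows had counts, with 66 in control cow 3, 15 in replacement cow 1 and 30 in replacement cow 3. A count of 0 in the other cows allows a share of up to 0.00426% in control cow 1, 0.00186% in control cow 2 and 0.00312% in replacement cow 2. The level of 0.108% in control cow 3 was thus far above the limits in the other control cows. Of the members of the first cluster, bta-miR-20a was seen in 5 cows with up to 47 counts and a mean share of 0.0155% ± 0.0120 (SD, n = 6), and bta-miR-17-5p in 4 cows with up to 41 counts and 0.00957% ± 0.0104 (SD, n = 6). By share of known miRNA counts, bta-miR-20a was highest in control cow 3, at 0.0294%, and bta-miR-17-5p in replacement cow 1, at 0.0232%. The lowest member, bta-miR-19b, had 5 counts in control cow 3 and 14 in replacement cow 2 and none in the other cows.

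Ordered by mean share, the members ran from bta-miR-92a through bta-miR-25, bta-miR-93, bta-miR-92b, bta-miR-106b, bta-miR-20a and bta-miR-17-5p to bta-miR-19b. The step from bta-miR-92a to bta-miR-25, 1.35 ± 0.203 percentage points within a cow (SD, n = 6), and that from bta-miR-25 to bta-miR-93, 0.338 ± 0.175 points, had the same sign in 6 of 6 cows and exceeded their spread. The step from bta-miR-20a to bta-miR-17-5p, 0.00590 ± 0.00501 points, also exceeded its spread and had this sign in 5 of 6 cows. All other neighbours in this order differed by less than the spread between cows. These comparisons of level are per mature miRNA, as counted by the authors.

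Grouped by seed, the 3 members with the seed of bta-miR-25 and bta-miR-92a together held 2.18% ± 0.451 (SD, n = 6) of known miRNA counts. They made up 91.2% to 97.8% of all member counts in single cows, with a mean of 95.2% ± 2.46. The 4 members with the seed of bta-miR-17-5p held 0.113% ± 0.0870 (SD, n = 6), or 4.63% ± 2.33 of member counts, and bta-miR-19b held 0.170% ± 0.313 of them. The mean of bta-miR-19b rested on replacement cow 2, at 0.776%, and control cow 3, at 0.247%, as the other cows had no count of it. By counts, the family in these EVs was mostly the seed of bta-miR-25 and bta-miR-92a. The summed share of the bta-miR-17-5p seed was 0.0525%, 0.0502% and 0.285% in control cows 1, 2 and 3, and 0.10005%, 0.0945% and 0.0948% in replacement cows 1, 2 and 3. The replacement cows were nearly equal, while control cow 3 lay above and the other control cows below them. The control mean of 0.129% ± 0.135 (SD, n = 3) rested on control cow 3, without which it was 0.0514%, and the order of the diet means then turned, since the replacement mean was 0.0965% ± 0.00311 (SD, n = 3). The order also turned with all cows kept when predicted miRNAs were in the total, with 0.0236% on the control and 0.0332% on the replacement diet, and in RPM, with 7.75 and 8.66.

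The clusters were also unequal inside. In the miR-17-92 cluster, bta-miR-92a held 97.0% to 99.8% of the counts in single cows, with a mean of 98.4% ± 1.07 (SD, n = 6). Over all cows it had 10892 counts, 57.6-fold the 189 counts of bta-miR-17-5p, bta-miR-20a and bta-miR-19b together. The 10892 counts do not separate MIR92A-1 from MIR92A-2. Of the neighbours of MIR92A-2, miR-20b, miR-18b and miR-106a were not listed in the table. The same held for bta-miR-363, which was looked up by this name though it is outside the chosen names. A further neighbour, MIR19B-2, gives the same mature bta-miR-19b as MIR19B. In the miR-106b-25 cluster, bta-miR-25 also led, but less and more variably, with 82.1% ± 10.5 (SD, n = 6) of the counts. Its part of the cluster was 96.0%, 92.02% and 74.0% in control cows 1, 2 and 3 and 79.6%, 68.5% and 82.3% in replacement cows 1, 2 and 3. Control cows 1 and 2 were the highest, and control cow 3 lay among the replacement cows. The highest and lowest cow, control cow 1 and replacement cow 2, had 95% Wilson intervals of 93.6% to 97.6% and 62.9% to 73.6%. These intervals cover counting error only, and no pair of cows on a diet agreed within sampling noise. No conclusion is therefore drawn from the gap between them. Over the cows the miR-17-92 cluster held 1.78% ± 0.316 and the miR-106b-25 cluster 0.487% ± 0.235 of known miRNA counts (SD, n = 6).

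**Figure D2:**
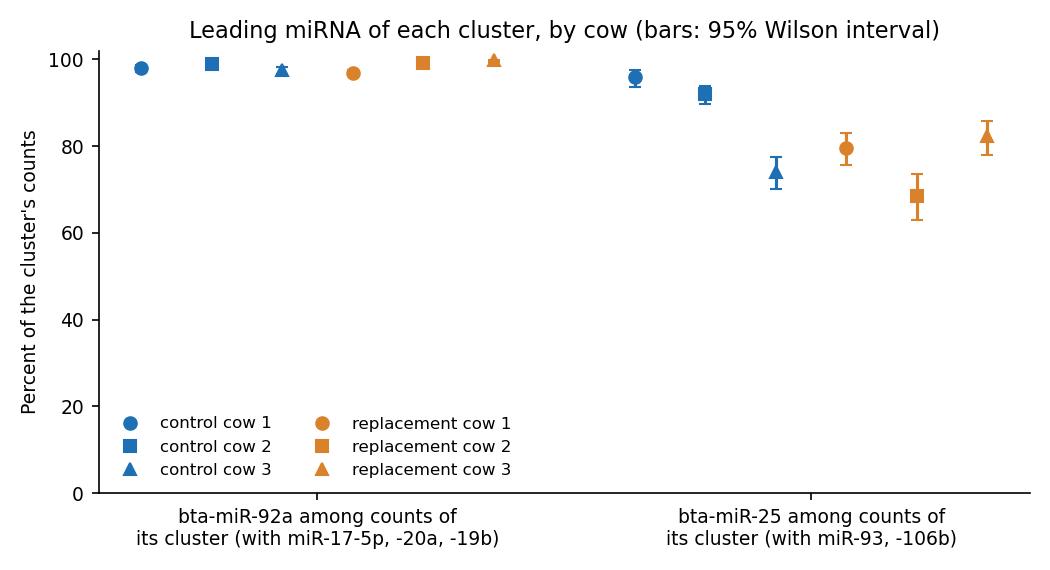
Percent of the counts of a cluster that fell on its leading miRNA in each of the 6 cows, with 95% Wilson intervals as bars. On the left bta-miR-92a stays between 97.0% and 99.8%, and on the right bta-miR-25 ranges from 68.5% to 96.0%.

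Since bta-miR-92a and bta-miR-25 share a seed but come from different transcripts, their ratio within a cow compares the pair without any total. Since bta-miR-92a has genes in 2 clusters, it is a ratio of mature miRNAs and not of clusters. The counts of bta-miR-92a per count of bta-miR-25 were 3.10, 4.79 and 3.48 in control cows 1, 2 and 3. In replacement cows 1, 2 and 3 the ratios were 8.06, 7.47 and 3.78. Replacement cows 1 and 2 lay above every control cow, and their 95% Wilson intervals, from 7.21 to 9.01 and from 6.44 to 8.66, did not reach that of control cow 2, which ended at 5.22. Replacement cow 3 lay within the range of the control cows. On the log2 scale the ratio was 1.90 ± 0.32 on the control diet and 2.61 ± 0.60 on the replacement diet (SD, n = 3 each). The difference of 0.71 did not stand out among reassignments of the cows to the diets (two-sided exact permutation p = 0.2).

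**Figure D3:**
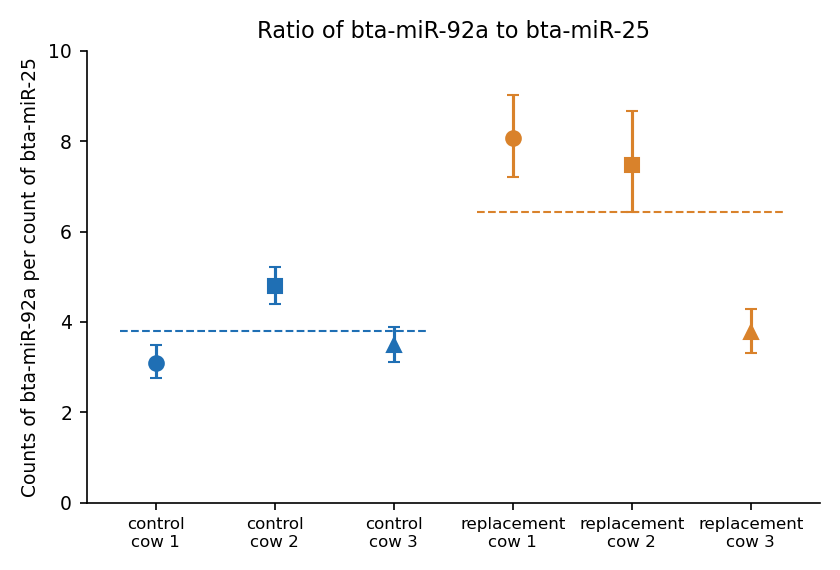
Counts of bta-miR-92a per count of bta-miR-25 in each of the 6 cows, with 95% Wilson intervals as bars and the mean of each diet as a dashed line. Replacement cows 1 and 2 stand at 8.06 and 7.47, and replacement cow 3, at 3.78, lies among the control cows.

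All members together held 2.19%, 2.26% and 3.31% of known miRNA counts in control cows 1, 2 and 3, and 1.91%, 1.88% and 2.21% in replacement cows 1, 2 and 3. Control cow 3 was the highest, and without it the mean of 2.29% ± 0.524 (SD, n = 6) was 2.09% ± 0.179 (SD, n = 5). The same cow held the highest share for 5 of the 8 members, or 62.5%, against 66 of the 276 known miRNAs, or 23.9%. This standing was tied to the total of known miRNAs. With predicted miRNAs in the total, or in RPM, control cow 3 was the highest for 1 of 8 members, bta-miR-106b, or 12.5%. Of the 276 known miRNAs it was the highest for 37, or 13.4%, with predicted miRNAs in the total and for 38, or 13.8%, in RPM. All members together held 0.522% of the wider total in control cow 3 against 0.804% in replacement cow 1. Markers of other cell types were therefore set beside these values. The red blood cell list of 6 miRNAs, all with a row and none of them a member, summed to 9.32%, 5.39% and 17.8% in control cows 1, 2 and 3 and to 4.93%, 7.98% and 9.31% in replacement cows 1, 2 and 3. It too was highest in control cow 3, as were 5 of its 6 miRNAs. With predicted miRNAs in the total, control cow 3 and replacement cow 2 were level at 2.81% each, and 3 of its 6 miRNAs were highest in control cow 3. In RPM the list was again highest in control cow 3, at 875.5 against 501.9 to 690.7 in the other cows, as were 4 of its 6 miRNAs. Its most abundant miRNA was bta-miR-486, with 6.83% ± 2.77 (SD, n = 6), and bta-miR-16a was at 0 in replacement cows 2 and 3, as was bta-miR-16b in replacement cow 3. The defining marker bta-miR-451 had 3454 counts in control cow 3 and 1025 to 2399 in the other cows. Their part in the result was not tested.

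**Figure D4:**
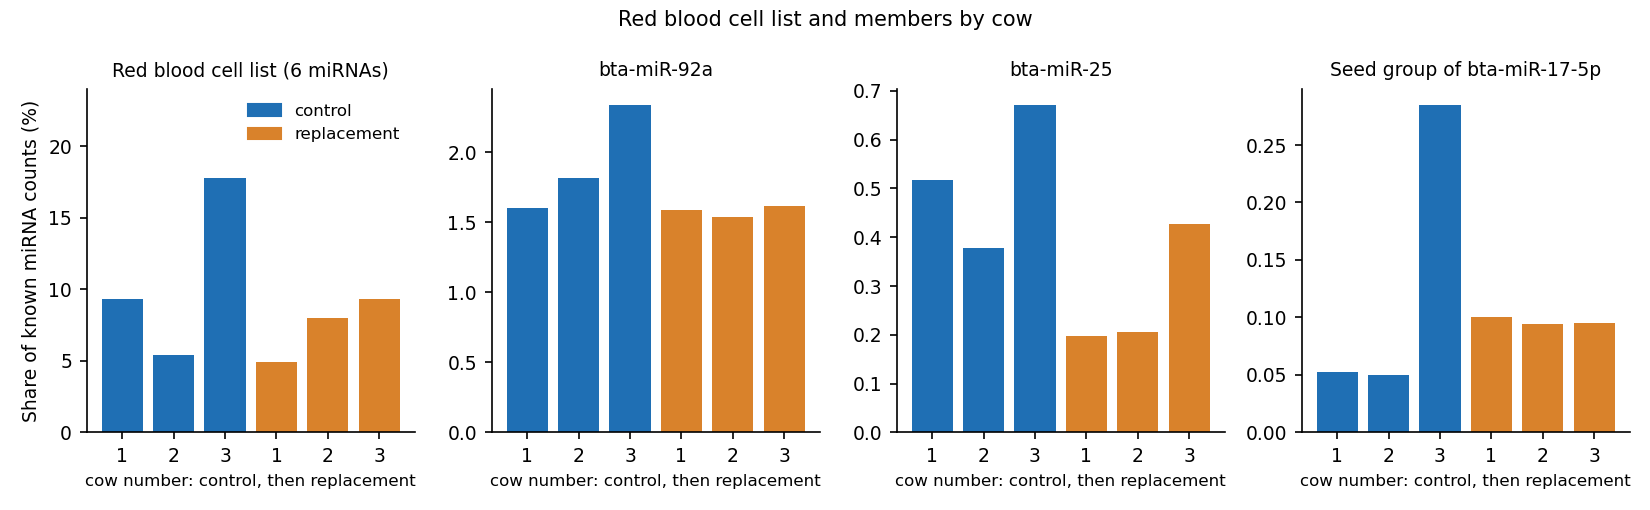
Share of known miRNA counts, in percent, of the red blood cell list, of bta-miR-92a, of bta-miR-25 and of the seed group of bta-miR-17-5p, as a bar for each of the 6 cows on an axis that starts at 0. Control cow 3 is the highest bar in each panel, at 17.8%, 2.34%, 0.670% and 0.285%; with predicted miRNAs in the total it is no longer the highest for bta-miR-92a or bta-miR-25, stays the highest for the seed group at 0.0449% and is level with replacement cow 2 for the list.

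The other lists did not set that cow apart. The leukocyte list, with 8 of 8 miRNAs in the table and bta-miR-150 as its most abundant at 1.51% ± 0.447 (SD, n = 6), summed to 2.29%, 3.17% and 3.18% in control cows 1, 2 and 3 and to 2.00%, 2.26% and 3.15% in replacement cows 1, 2 and 3. In this list bta-miR-142-3p was at 0 in every cow but control cow 3, where it had 1 count. Control cows 2 and 3 and replacement cow 3 were nearly level and above the other cows, and the part of this list in the result was not tested. The mammary epithelium list, with 9 of 9 miRNAs in the table and bta-miR-30d as its most abundant at 2.87% ± 0.878 (SD, n = 6), summed to 3.90%, 4.02% and 3.19% in control cows 1, 2 and 3 and to 5.56%, 3.62% and 3.58% in replacement cows 1, 2 and 3. Its defining epithelial miRNAs, bta-miR-200a, bta-miR-200b, bta-miR-200c, bta-miR-141, bta-miR-429 and bta-miR-205, were scarce, with 158, 41 and 56 counts together in control cows 1, 2 and 3 and 123, 0 and 78 in replacement cows 1, 2 and 3. All 6 were thus at 0 in replacement cow 2, and the sum of the list rested on bta-miR-30d, bta-miR-148a and bta-miR-30a-5p. The list's sum was lowest in control cow 3, but its 6 defining epithelial miRNAs were not, with 0.0916% of known miRNA counts there against 0.0254% in control cow 2 and 0.0695% in replacement cow 1, and its part in the result was not tested either.

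To find miRNAs that followed the abundant members from cow to cow, the log2 ratio of counts was taken in each cow, and its SD over the 6 cows served as the measure of likeness among 56 other known miRNAs with at least 50 counts in every cow. Those nearest to bta-miR-92a were bta-let-7a-5p, with an SD of 0.18, bta-miR-342, with 0.19, and bta-miR-484, with 0.27, while the median was 0.52. The first place of bta-let-7a-5p held in 4 of 6 settings with 1 cow left out, and it fell to rank 6 at the lowest. Nearest to bta-miR-25 were bta-miR-140, with an SD of 0.16, bta-miR-139, with 0.45, and bta-miR-150, with 0.47, against a median of 0.78. The count of bta-miR-25 was between 3.67 and 4.89 times that of bta-miR-140 in every cow, and bta-miR-140 stayed first in 6 of 6 settings with 1 cow left out. The seed partners did not follow each other closely, since bta-miR-25 was only at rank 36 for bta-miR-92a and bta-miR-92a at rank 14 for bta-miR-25, with an SD of 0.58. The red blood cell miRNAs bta-miR-451 and bta-miR-486 stood at ranks 9 and 12 for bta-miR-25 and at ranks 52 and 31 for bta-miR-92a. Of the nearest miRNAs named above, bta-miR-342 and bta-miR-150 belong to the leukocyte list. The other miRNAs of the leukocyte and red blood cell lists did not reach 50 counts in every cow and were not ranked.

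Across all miRNAs, the diets were compared with edgeR's quasi-likelihood test, and 6 of the 8 members passed its filter on low counts. No member was among the calls, as 0 of 227 miRNAs tested, or 0%, had an adjusted p under 0.05 by edgeR, where 8 had an unadjusted p under 0.05. DESeq2 called 3 of 767, all higher on the replacement diet and none a member. The log2 fold change, replacement over control, was -0.23 with a standard error of 0.36 for bta-miR-92a and -0.92 with a standard error of 0.41 for bta-miR-25 (adjusted p = 0.986 for each, edgeR). Leaving out a cow moved the value of bta-miR-92a between -0.48, without replacement cow 1, and -0.02, without control cow 2. The 95% interval of bta-miR-25 ran from -1.86 to 0.02. All miRNAs of the red blood cell list had negative values too, from -1.64 for bta-miR-185 to -0.13 for bta-miR-16b, with -1.30 for bta-miR-451. None of them was called (adjusted p = 0.986 for each, edgeR), and their part in the value of bta-miR-25 was not tested. The order of the diets for the summed list was not stable. Without control cow 3 the list held 7.36% of known miRNA counts on the control and 7.41% on the replacement diet. With predicted miRNAs in the total and all cows kept, it held 2.12% ± 0.631 and 2.42% ± 0.368 (SD, n = 3 each). In RPM it stayed lower on the replacement diet, with 599.9 against 689.4. For bta-miR-92b the log2 fold change was 1.40 with a standard error of 0.96 and for bta-miR-32 it was 2.33 with a standard error of 1.40 (adjusted p = 0.986 for each, edgeR). Leaving out a cow moved the value of bta-miR-32 between 1.77, without control cow 1, and 3.38, without control cow 2. The interval of bta-miR-92b, from -0.81 to 3.62, was much wider than that of bta-miR-25 and included 0. Of the remaining members tested, bta-miR-93 had a log2 fold change of 0.12, bta-miR-20a of -0.66 and bta-miR-106b of -1.05. Single cows decided these values, as bta-miR-93 had -0.29 without replacement cow 2 and -0.19 without control cow 1, and bta-miR-106b had 6.92 without control cow 3, its only control cow with counts. For bta-miR-20a leaving out a cow gave from -4.06, without replacement cow 1, to -0.11, without replacement cow 2. The 6 members had a median log2 fold change of -0.44, against 0.03 over the 227 miRNAs. This sign was not stable, since the members' median was 0.37 without control cow 3 and 0.11 with the replicate number as a block, and over all 8 members it was 0.00441 with DESeq2 and -0.03 in edgeR without the filter. In these last settings the median of all miRNAs tested was -0.24 and -0.26, so the members' median lay above it and not below. Scaling by library size alone moved the median of all tested miRNAs to 0.63 and that of the members to 0.15, and bta-miR-92a then had 0.40, which relative to the median of all was -0.23 and thus below it under either scaling. For bta-miR-25 library size alone gave -0.29 in place of -0.92. The value of bta-miR-25 relative to that median was -0.95 with the main scaling and -0.92 with library size alone, and for bta-miR-92b it was 1.38 and 1.36.

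**Figure D5:**
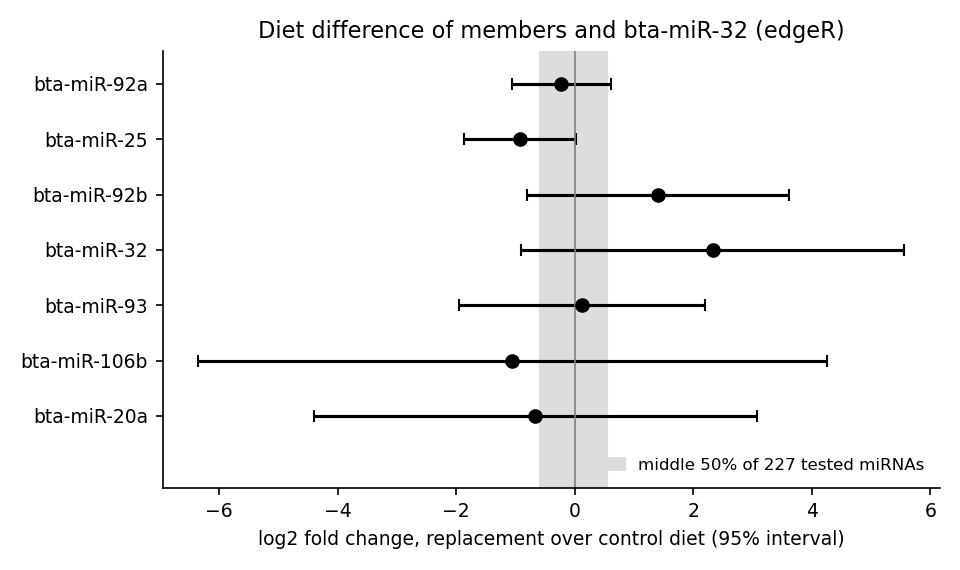
Log2 fold change of the replacement over the control diet with its 95% interval from edgeR for the 6 members that passed the filter and for bta-miR-32, with the middle 50% of the 227 tested miRNAs as a grey band. The point of bta-miR-25 lies at -0.92 and that of bta-miR-92b at 1.40, and every interval includes 0; with library size alone as the scaling, the point of bta-miR-92a moves from -0.23 to 0.40.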

How the data were processed

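Small RNA libraries of milk EVs from 6 cows were used. According to their methods and processing notes, which name Cutadapt 1.14, Bowtie and the build ARS-UCD1.2, the authors trimmed, filtered and aligned the reads, named known miRNAs by miRBase and called predicted ones with miRDeep2. The deposited values are whole-number counts for each mature miRNA, made by the authors without normalization, and the same values as RPM, scaled to the reads of each library, under the name TPM. A deposited table of the authors' comparison (fold changes and p-values) was not used.

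From the counts, shares of known miRNA counts, ratios and likeness were computed in Python 3.11.15 with pandas 2.3.3, numpy 2.4.6 and scipy 1.17.1. Single values were compared by two-sided exact permutation tests, and sums over members were not tested. All miRNAs were compared with edgeR 4.0.16 in R 4.3.3 (TMM, default filter, Benjamini-Hochberg adjustment) and with DESeq2 1.42.0 as an alternative. The edgeR script was tested on simulated counts with a smaller spread between cows than here and with large fold changes. That test therefore does not show which differences could be called in these data. No pair of cows on a diet agreed within sampling noise (chi-square per degree of freedom 38.9 to 119). Alternatives were other totals, pooled counts, RPM, other scalings, filters and tools, the replicate block and each cow left out. Named miRNAs were all members, the 3 nearest to bta-miR-92a and to bta-miR-25, the marker lists and relatives sharing a seed or transcript. Members and lists were chosen with earlier results of these data known.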

Additional observations from a re-analysis of the deposited data

Results flagged for a closer look

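With 3 cows on each diet, single cows were compared over all 6 cows at once, by the gap of the highest or lowest cow to its neighbour relative to the whole range. The 19 results looked at this way were the share of each of the 8 members, the sums of all members, of the larger seed groups and of the clusters, the part of the leading miRNA in each cluster, the log2 ratio of bta-miR-92a to bta-miR-25 and the 3 marker lists. In 8 of them a cow lay far from the others, where chance finds about 1 in 20 groups, or 0.95 of 19, and results that share miRNAs or a total are not independent. Control cow 3 stood apart with 2.34% of known miRNA counts for bta-miR-92a (others 1.54% to 1.81%), 3.02% for the seed group of bta-miR-25 and bta-miR-92a (others 1.77% to 2.21%), 3.31% for all members (others 1.88% to 2.26%), 0.285% for the seed group of bta-miR-17-5p (others 0.0502% to 0.10005%), 2.39% for the miR-17-92 cluster (others 1.55% to 1.83%) and 17.8% for the red blood cell list (others 4.93% to 9.32%). For bta-miR-92b it was replacement cow 3, with 0.0689% (others 0.0131% to 0.0305%), and for the mammary epithelium list replacement cow 1, with 5.56% (others 3.19% to 4.02%). Without control cow 3 the diet difference of bta-miR-92a went from -0.337 to -0.128 percentage points. None of these values stood apart by the same measure with predicted miRNAs in the total or in RPM. Both scales were planned for the diet difference of bta-miR-92a. The total with predicted miRNAs was also planned for the sums of all members and of the seed group of bta-miR-25 and bta-miR-92a. For the rest, among them bta-miR-92b, these scales were added after seeing the data. On these 2 scales control cow 3, whose known miRNA counts were the fewest, ranked 5 and 4 of 6 for bta-miR-92a. It stayed at rank 1 for the seed group of bta-miR-17-5p (0.0449% and 14.0 RPM). For the red blood cell list it was at rank 1 in RPM (875.5), but level with replacement cow 2 at 2.81% with predicted miRNAs in the total. The cause of these values was not tested.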

How the results depend on the processing

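Of 163 recomputed values, 151 kept their direction and side of the threshold or moved by less than the spread between cows. Part of this tally was fixed in advance, so it does not measure stability. Leaving out 1 cow cannot move a mean over all cows by as much as the spread between cows. With so few cows the exact permutation tests of shares and of the ratio cannot give a p under 0.05. Those values could change direction but not side. The number of miRNAs called between diets was 0 with edgeR, 3 with DESeq2 and 15 without the filter on low counts, and with 1 cow left out it ran from 0 to 1 (1 without control cow 2 and 1 without control cow 3), with no member called in any setting. The diet difference of bta-miR-92a turned to 0.128 percentage points of known and predicted miRNA counts together, and its log2 fold change to 0.40 with library size alone, where the median of all tested miRNAs moved by a like amount. That of bta-miR-93 turned to -0.19 without control cow 1 and -0.29 without replacement cow 2, and leaving out other cows gave up to 0.99. That of bta-miR-106b turned to 6.92 without control cow 3, the only control cow with counts of it, against -2.44 at the lowest, and to 1.00 with the replicate block; the cause was otherwise not tested. With known and predicted miRNAs as the total, the members held 0.613% and the seed group of bta-miR-25 and bta-miR-92a 0.583%, by construction. The log2 fold change of bta-miR-25 kept its sign in 12 of 12 settings (from -1.14 to -0.29, the latter with library size alone), as did that of bta-miR-92b (from 1.10 to 1.99). So did those of the scarce bta-miR-20a (from -4.06 to -0.11) and bta-miR-32 (from 1.77 to 3.38), and all settings reuse the same cows. The labels do not say whether the cow numbers pair the diets. Same-numbered cows correlated at -0.153, -0.224 and 0.264 over 103 miRNAs, and differently numbered cows at -0.339 to 0.472. With 3 cows on each diet these values cannot decide whether the cows were paired. With the replicate block edgeR called 0 miRNAs, and the log2 ratio of bta-miR-92a to bta-miR-25 differed by 0.71 (exact sign-flip permutation p = 0.25, the smallest 3 pairs allow). Leaving out cows gave 0.51 to 1.06 for that ratio. The alternatives for the share of bta-miR-92b and for the parts of the clusters were chosen after seeing the data. None turned the diet difference of bta-miR-92b, though it fell from 0.0263 to 0.0124 points without replacement cow 3. The mean parts of the clusters have no diet direction, and leaving out 1 cow could not move them by the spread between cows. The lower members had only 0 to 91 counts per cow, and the part of depth in their values was not tested.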
